A study of Sus scrofa with 6 samples.

Results

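The microRNAs miR-191 and miR-425 were followed through 12 RNAs of developing pig teeth. Of 742 experimental probes on the array, 4 carry one of these numbers after a pig, mammalian or predicted miRNA prefix, and all 4 were among the 656 probes that passed the detection filter, which asked for signal in at least 3 RNAs. They were selected on their measured levels by day, namely for the rise of miR-191 and miR-425-5p after embryonic day 40, so every value by day given here is a description and carries no test. The RNAs came from whole tooth germs of miniature pig embryos, taken from the deciduous incisor, canine, premolar and molar at days 40, 50 and 60, with 1 RNA for each of these conditions. No treatment or genetic change was labelled, and whether an RNA pooled several embryos is not stated in the labels. The RNAs were hybridised in pairs, 1 in Cy3 and 1 in Cy5, on 6 arrays on which every probe has 4 spots.

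Mature miRNAs of about the length shown here are cut from a hairpin, whose arms give a 5p and a 3p strand, and one strand usually accumulates while the other is degraded. A miRNA pairs with messenger RNAs mainly through its seed, the bases next to its 5′ end, and lowers their translation and stability. In mammals miR-425 and miR-191 are neighbouring hairpins of one primary transcript within the host gene DALRD3, and miR-191 is found in many tissues. In the RefSeq annotation of the pig assembly Sscrofa11.1, both genes were matched, both lie inside DALRD3, and no other gene lies wholly between them. The assembly behind the array design is not given in the sources used here, so positions are not printed.

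The mature sequences that the 4 probes target, as deposited with the arrays, are shown because they decide whether the probes can be read separately. Capitals mark the seed, bases 2 to 8 from the 5′ end.
ssc-miR-191: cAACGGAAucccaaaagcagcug
miR-191-3p-33349: gCUGCACUuggauuucguucc
ssc-miR-425-5p: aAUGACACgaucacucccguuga
ssc-miR-425-3p: aUCGGGAAugucguguccgccc

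The 4 sequences have 4 different seeds, and 0 of the other experimental probes share any of them. They are 23, 21, 23 and 22 bases long in the order shown. The longest run of bases in common with any other probe was 8 for ssc-miR-191, miR-191-3p-33349 and ssc-miR-425-5p, and 7 for ssc-miR-425-3p. They are thus not a family in the sense of a shared seed.

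The probe for miR-191, the major strand of its hairpin, gave signal in 12 of 12 RNAs, and so did that for miR-425-5p, the 5p strand of its neighbour. The 3p strands were dim: miR-425-3p was detected in 8 of 12 RNAs and miR-191-3p in 3 of 12. Detection means a mean intensity above the local blank-spot level by more than 3 SD of the blank spots. Intensities of different probes are not compared as amounts, since probes differ in how strongly they bind.

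Several properties of the arrays bear on the values. The day-40 RNAs lie on 2 arrays that hold no later day, so an effect of day 40 and one of its 2 arrays cannot be told apart. The day-50 and day-60 molars share an array whose left column is headed as the day-50 molar, which the labels give as Cy5. On every other array the left column is that of the Cy3 RNA, so which molar is in which column is uncertain. The column headings were followed for the RNA, and day 50 and day 60 of the molar were also exchanged. Blank-spot medians ran from 39.2 to 273 over the 12 RNAs, and 266 to 732 probes were detected per RNA. Known marker miRNAs served as a check of the labelled tissue. Of 17 probes for epithelial miRNAs such as miR-205 and the miR-200 group, 10 were detected in all RNAs, as were 12 of 18 for mesenchymal miRNAs such as miR-199a and miR-214. Over the whole array 222 of 742 probes were detected in all 12 RNAs. Signal of some muscle miRNAs was also present: of 12 probes for skeletal muscle miRNAs, 0 were detected in all RNAs but 4 were detected in 10 of 12. These 4 were all probes for miR-133a or miR-133b. Among the others, PN-1-3p-13186 was detected in 8 RNAs and ssc-miR-206 in 7, but ssc-miR-1 in 1 and ssc-miR-499 in 3. With up to 732 of 742 probes detected in a single RNA, such partial counts say little about the presence of muscle.

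miR-191 was lower in all 4 day-40 germs than in any of the 8 later ones. On the normalised log2 scale its level at day 40 was 8.16 in the incisor, 8.17 in the canine, 8.34 in the premolar and 8.56 in the molar. At day 50 it was 9.36 in the incisor, 9.27 in the canine, 9.15 in the premolar and 10.29 in the molar. At day 60 the incisor read 9.40, the canine 9.25, the premolar 9.35 and the molar 10.22. The molar was the highest at each day. Under the reported scaling the other 3 tooth types lay close together. With median centring of each channel they lay farther apart, from 8.36 in the premolar to 9.54 in the canine at day 50. The 2 later molars stood above every other RNA, 0.81 above the next level down.

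The mean level of miR-191 was 8.31 ± 0.19 (SD, n = 4 tooth types) at day 40, 9.52 ± 0.52 (n = 4) at day 50 and 9.56 ± 0.45 (n = 4) at day 60. Taking the mean of days 50 and 60 against day 40 within each tooth type, the difference was 1.23 ± 0.33 (SD, n = 4), or 2.34-fold, and it was positive in 4 of 4 tooth types. It was 2.33-fold in the incisor, 2.13-fold in the canine, 1.88-fold in the premolar and 3.23-fold in the molar. These sizes depended on the scaling: on the log2 scale the molar step was 1.69 here, 3.25 with no scaling between arrays and 2.33 with median centring, and the canine step was 1.09, 0.61 and 1.46. Between day 50 and day 60 the level differed by 0.04 ± 0.12 (SD, n = 4), with 2 tooth types up and 2 down. The step thus lay between days 40 and 50, and the later difference was smaller than its spread over tooth types. Without the molars, whose 2 later RNAs share the array with the highest miR-191 levels, the difference between later days and day 40 was 1.07 ± 0.16 (SD, n = 3).

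miR-425-5p, from the same transcript, had the same order of days with a smaller step. Its level at day 40 was 6.95 in the incisor, 6.89 in the canine, 6.89 in the premolar and 6.87 in the molar. At day 50 the 4 levels in the same order were 7.34, 7.43, 7.24 and 7.33. At day 60 they were 7.35, 7.47, 7.23 and 7.38. All day-40 germs lay below all later germs, and under this scaling the molar was not set apart at any day. With no scaling between arrays the later molars did stand apart, at 8.51 and 8.56 against 7.01 to 7.25 in the other later RNAs, and so they did with median centring of each channel, at 8.21 and 7.84 against at most 7.56. The means were 6.90 ± 0.04, 7.33 ± 0.08 and 7.36 ± 0.10 (SD, n = 4 each) at days 40, 50 and 60.

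Later days exceeded day 40 by 0.45 ± 0.10 (SD, n = 4) for miR-425-5p, or 1.36-fold, with a positive difference in 4 of 4 tooth types. It was 1.32-fold in the incisor, 1.48-fold in the canine, 1.26-fold in the premolar and 1.40-fold in the molar. The order of tooth types held for this scaling only: the molar step was 0.49 on the log2 scale here, 1.63 with no scaling between arrays and 1.04 with median centring, and the canine step was 0.56, 0.30 and 0.67. From day 50 to day 60 the difference was 0.03 ± 0.03 (SD, n = 4). Without the molars, later days exceeded day 40 by 0.43 ± 0.12 (SD, n = 3). The size of this step depended on the offset of 50 that was added in the background step: with an offset of 0 it was 0.75, while that of miR-191 was 1.39.

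**Figure D1:**
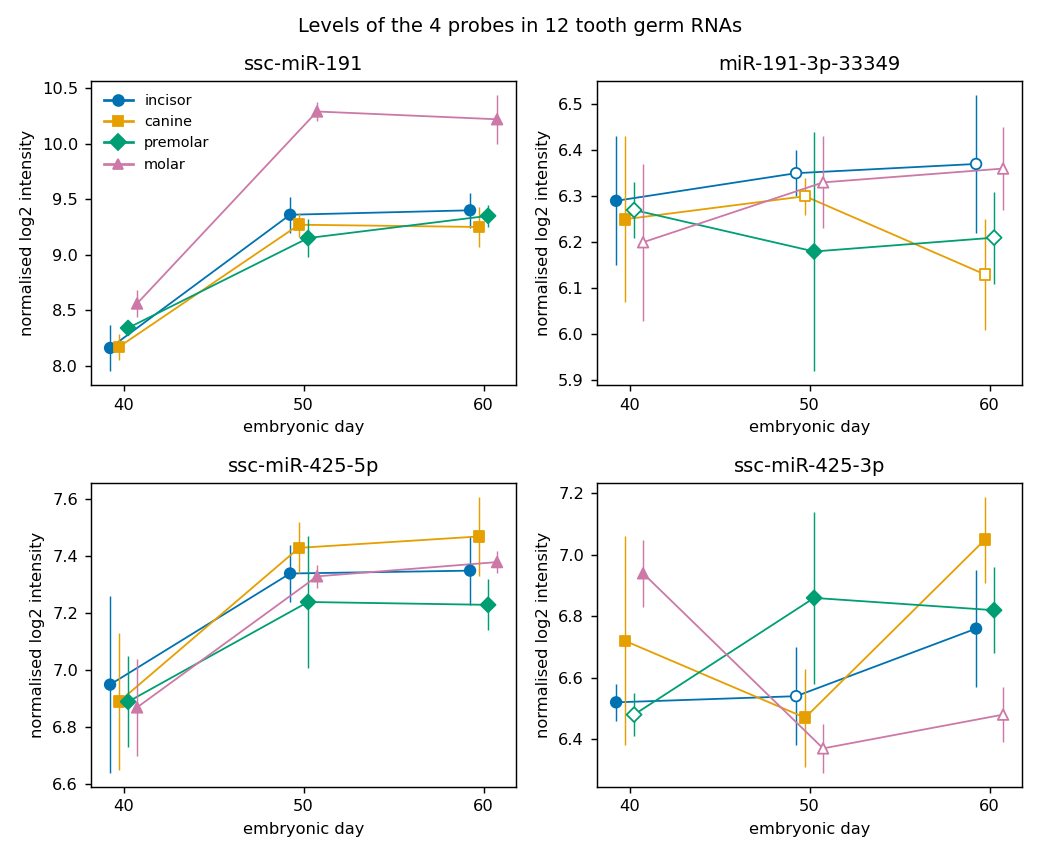
Normalised log2 intensity of the 4 probes against embryonic day, with a line for each tooth type, bars for the SD of the 4 spots and open symbols where the probe was not above background; the vertical scales differ between panels. ssc-miR-191 and ssc-miR-425-5p lie lower at day 40 than at both later days in every tooth type, and the later molars read 10.29 and 10.22 for ssc-miR-191.

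The 3p strands had no such course. For miR-191-3p the 12 levels spanned only 6.13 to 6.37, and the probe was above background in the day-40 incisor, the day-40 canine and the day-50 premolar. Its signal there was only 1.17, 1.24 and 1.14 times the threshold. In the same RNAs 646, 705 and 732 of all 742 probes were detected, so these calls say little about the presence of miR-191-3p. Where it was not detected, its level is only an upper bound. Later days differed from day 40 by 0.03 ± 0.10 (SD, n = 4), with 2 tooth types up and 2 down.

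miR-425-3p was not above background in the day-40 premolar, the day-50 incisor and either later molar. Where it was detected, its signal was 1.46 to 5.84 times the threshold. The day-40 incisor, the day-40 canine and the day-50 premolar were among these RNAs. As 646, 705 and 732 of all probes were detected there, these calls say little about the presence of miR-425-3p. At day 40 the level of miR-425-3p was 6.52 in the incisor, 6.72 in the canine, 6.48 in the premolar and 6.94 in the molar. At day 50 the 4 levels in the same order were 6.54, 6.47, 6.86 and 6.37, and at day 60 they were 6.76, 7.05, 6.82 and 6.48. The days overlapped, with the highest level in the day-60 canine and the lowest in the day-50 molar. Later days differed from day 40 by 0.00 ± 0.37 (SD, n = 4). In the molar the difference was -0.51, which sets a detected day-40 level against later levels that are not above background and so has no exact size. Without the molars the difference was 0.18 ± 0.16 (SD, n = 3), with undetected RNAs in the incisor and premolar.

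The share of probes that behaved like the major strands gives the background for this pattern. Of all 656 tested probes, 25 (3.81%) had every day-40 RNA below every later RNA, and 2 of the 4 probes described here were among them. Since they were chosen by this contrast, nothing is read from that count. Over all tested probes the median difference between later days and day 40 was 0.01, against 0.24 over the 4 probes, and 348 of the 656 were higher on the later days.

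In the order of miR-191 levels, the 2 later molars came first and differed from each other by 0.07, less than the median SD of 0.14 between the spots of a probe, which covers technical spread on the array alone. Under the reported scaling, to which this order belongs, the 6 other later RNAs ran from 9.40 to 9.15 with no gap between neighbours above that SD. Then, 0.59 lower, came the day-40 molar, followed by the premolar 0.22 lower and the canine another 0.17 lower, while the canine and the incisor of day 40 differed by 0.01. For miR-425-5p the neighbours within the later RNAs and within day 40 differed by 0.01 to 0.10, less than its median spot SD of 0.13. The gap between the lowest later RNA and the highest day-40 RNA was 0.28, which belongs to the step on which the probe was chosen.

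The intensities before any normalisation did not separate the days. Above the blank-spot level, miR-191 read 152 in the incisor, 216 in the canine, 105 in the premolar and 381 in the molar at day 40, in intensity units of the scan. At day 50 it read 288 in the incisor, 685 in the canine, 422 in the premolar and 4955 in the molar. At day 60 these readings were 525, 309, 461 and 2818. The day-40 molar was thus brighter than the day-50 incisor and the day-60 canine. The separation of days appeared with the normalisation within arrays. With no scaling between arrays it was there by a narrow margin, the day-40 molar reading 8.66 and the day-50 premolar 8.69 for miR-191. In bulk RNA of this kind, a smaller number of cells that carry a miRNA and a lower content per cell cannot be told apart.

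miR-425-5p was near the lower end of what could be measured. Its intensity above blank spots ran from 14.4 in the day-40 premolar to 371 in the day-50 molar, with a median of 65.3. This was 1.99 to 7.51 times the detection threshold of the RNA in question. For miR-191 the signal was 9.85 to 103 times the threshold.

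**Figure D2:**
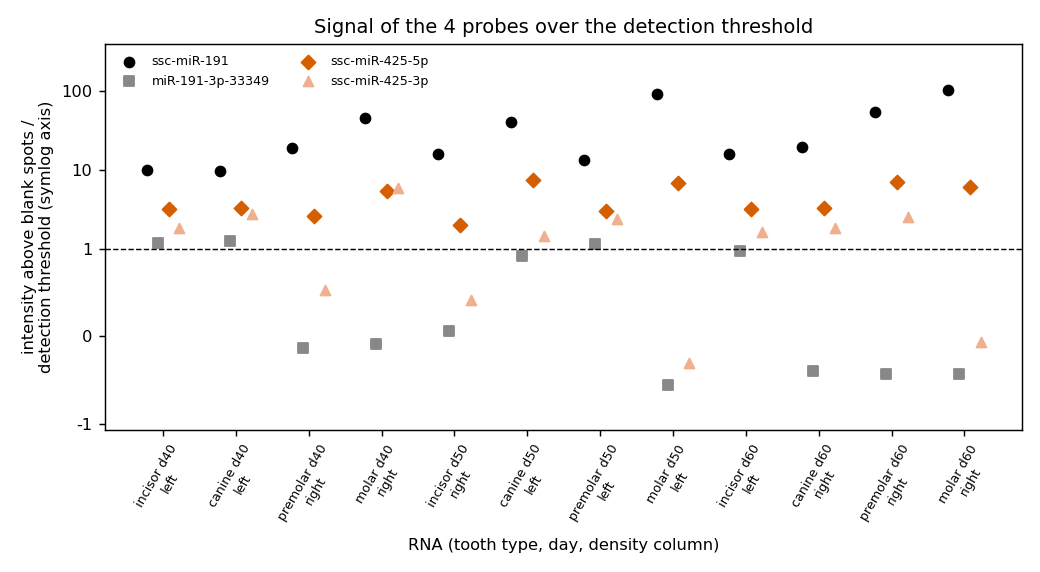
Intensity above the blank-spot level divided by the detection threshold (symmetric log axis, linear below 1) for the 4 probes in each of 12 RNAs, ordered by day, with the density column under each name; the dashed line is the threshold. ssc-miR-191 lies at 9.85 or more everywhere, ssc-miR-425-5p between 1.99 and 7.51, and the 3p probes lie on both sides of the line.

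Whether tooth types differ was not used to choose the probes and was tested in limma, with day and dye as terms and the array as a random block. No probe of the 4 was called. Adjusted p-values of the moderated F test over tooth types were 0.272 for miR-191, 0.263 for miR-425-5p, 0.615 for miR-191-3p and 0.926 for miR-425-3p, against 6 of all 656 probes called (0.915%). Each tooth type has 3 RNAs, 1 per day, so a p-value here measures the scatter of single RNAs around tooth type, day and dye, and not the spread between animals. The correlation within arrays, on which the standard errors rest, was estimated at 0.83.

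Among the 6 pairs of tooth types, miR-191 was higher in the molar than in each of the others without passing the threshold. The molar minus incisor difference was 0.48 ± 0.17 (SE, 95% interval 0.08 to 0.88), with an adjusted p of 0.178 in limma. Against the canine it was 0.46 ± 0.14 (SE, interval 0.12 to 0.79, adjusted p 0.175 in limma), and against the premolar 0.49 ± 0.16 (SE, interval 0.10 to 0.89, adjusted p 0.193 in limma). These sizes also depended on the scaling. With median centring the molar exceeded the incisor by 2.23 ± 0.39 (SE, adjusted p 0.0588 in limma), the canine by 1.53 and the premolar by 1.93, and with no scaling between arrays by 1.34, 1.10 and 1.33. None of these passed the threshold. Under the reported scaling the incisor, canine and premolar had estimates within 0.04 of each other. Their intervals reached from -0.33 to 0.29. With median centring these estimates lay farther apart, with canine minus incisor at 0.70 and premolar minus canine at -0.40.

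For miR-425-5p the estimate farthest from 0 was premolar minus canine, -0.17 ± 0.05 (SE, 95% interval -0.28 to -0.06), with an adjusted p of 0.22 in limma. The molar minus canine estimate was -0.05, and molar minus premolar 0.13 (interval -0.03 to 0.28). Other scalings put the molar contrasts of miR-425-5p first: with median centring molar minus incisor was 0.80 and molar minus premolar 0.75, and with no scaling between arrays 0.59 and 0.66. Molar minus canine then turned positive, at 0.31 and 0.37, and limma called none of these. The 3p strands had estimates between -0.08 and 0.08, and their intervals reached from -0.32 to 0.43. Over all tested probes the share called was 0.915% for premolar minus incisor, 0.305% for molar minus incisor, 0.762% for premolar minus canine, 0.457% for molar minus canine and 0.152% for molar minus premolar. For canine minus incisor limma called 0 probes (0%), with 88 at an unadjusted p under 0.05.

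**Figure D3:**
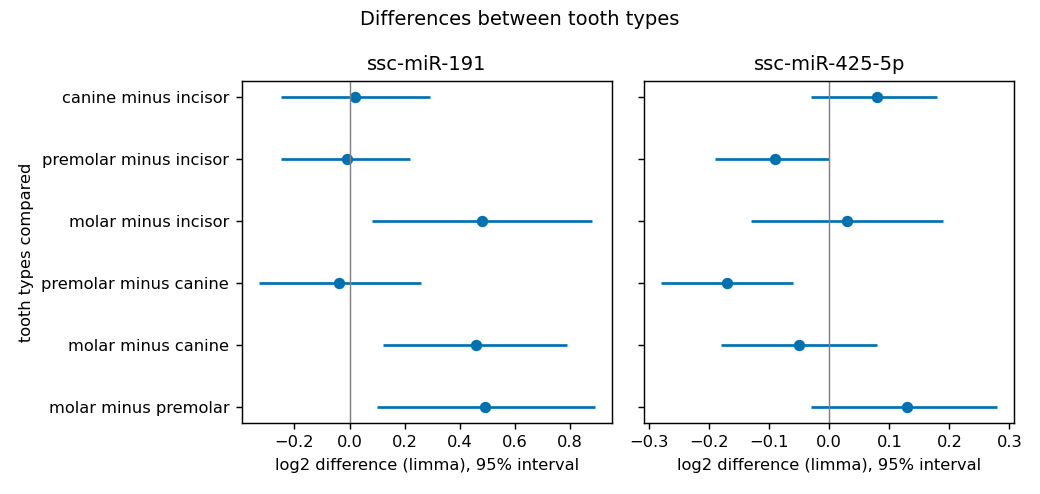
Estimated log2 differences between tooth types for ssc-miR-191 and ssc-miR-425-5p, under the reported scaling, with 95% intervals from limma that are not adjusted for the number of probes; the horizontal scales differ. The 3 intervals of the molar lie above 0 for ssc-miR-191, with adjusted p-values of 0.175 to 0.193.

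The miR-191 result for the molar turned on the day-40 molar. Without that RNA the adjusted p of the F test was 0.0264 in limma, and the molar exceeded the incisor by 0.94 ± 0.14 (SE), the canine by 0.97 and the premolar by 0.96, with adjusted p-values of 0.00677, 0.00678 and 0.0064. In the same fit these contrasts called 146, 126 and 141 of all 656 probes. The molar then rested on the later molar array alone, so that molar and array cannot be told apart, and the F test called 110 of 656 probes. Without the whole day-40 molar and canine array, the F test gave an adjusted p of 0.0328 in limma. Without the later molar array, which leaves the day-40 molar as the only molar, the F test gave 0.682 and molar minus incisor was 0.27 ± 0.14 (SE, adjusted p 0.487 in limma).

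The dye had no called effect on any of the 4 probes. Cy5 minus Cy3 was 0.06 ± 0.07 (SE) for miR-191, 0.01 ± 0.03 for miR-425-5p, -0.03 ± 0.03 for miR-191-3p and 0.05 ± 0.06 for miR-425-3p. Over all tested probes limma called 0 (0%), with 114 at an unadjusted p under 0.05.

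RNAs on the same array can be compared spot by spot, free of differences between arrays but not of those between dyes. A ratio was called where either RNA gave signal above background and every spot was at least 2-fold in one direction, and 0 of 24 ratios of the 4 probes met this. With 1 hybridisation per pair there is no test. The share of detected probes called was 4.1% for the day-60 canine over the day-50 premolar, 3.97% for the day-40 molar over canine and 3.4% for the day-40 premolar over incisor. It was 5.7% for the day-60 premolar over incisor, 10.8% for the day-50 incisor over canine and 3.25% for the day-50 over the day-60 molar.

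The miR-191 ratio farthest from 0 was that of the day-40 molar over the day-40 canine, at 0.39 on the log2 scale, and its 4 spots ran from 0.30 to 0.49. The molar thus read above the canine in every spot at day 40, on an array other than that of the later molars, and with median centring the ratio was 1.33. These 4 spots belong to 1 hybridisation, with the molar in Cy5 and the canine in Cy3. Tooth type and dye cannot be told apart in this ratio. For the premolar over the incisor the miR-191 ratio was 0.18 at day 40 and -0.05 at day 60. The day-50 incisor over canine gave 0.09, the day-60 canine over the day-50 premolar 0.10, and the day-50 over the day-60 molar 0.07. In each of these 5 ratios the spots lay on both sides of 0. That held for the reported scaling, and these ratios also moved with median centring. The day-50 incisor over canine was then -0.88, and the day-60 canine over the day-50 premolar 0.48. The premolar over the incisor was 0.14 at day 40 and 0.58 at day 60, and the day-50 over the day-60 molar 0.23.

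For miR-425-5p the ratios ran from -0.12 to 0.24, and with median centring from -0.63 to 0.39. Under the reported scaling the highest was the day-60 canine over the day-50 premolar, with spots from 0.01 to 0.36. The day-40 molar over canine was -0.02 where miR-191 gave 0.39. No array pairs day 40 with a later day, so no direct ratio bears on the step between days. In the authors' deposited table the miR-191 ratios were 0.33 for the day-40 molar over canine and between -0.32 and 0.28 on the other arrays. The authors' deposited table gave -1.47 for miR-191-3p and 0.97 for miR-425-3p in the day-60 canine over the day-50 premolar, farther from 0 than the ratios of -0.05 and 0.19 computed from the spots here. The scale and centring of the authors' values are unknown, and the medians of their columns were 0.01 to 0.16.

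**Figure D4:**
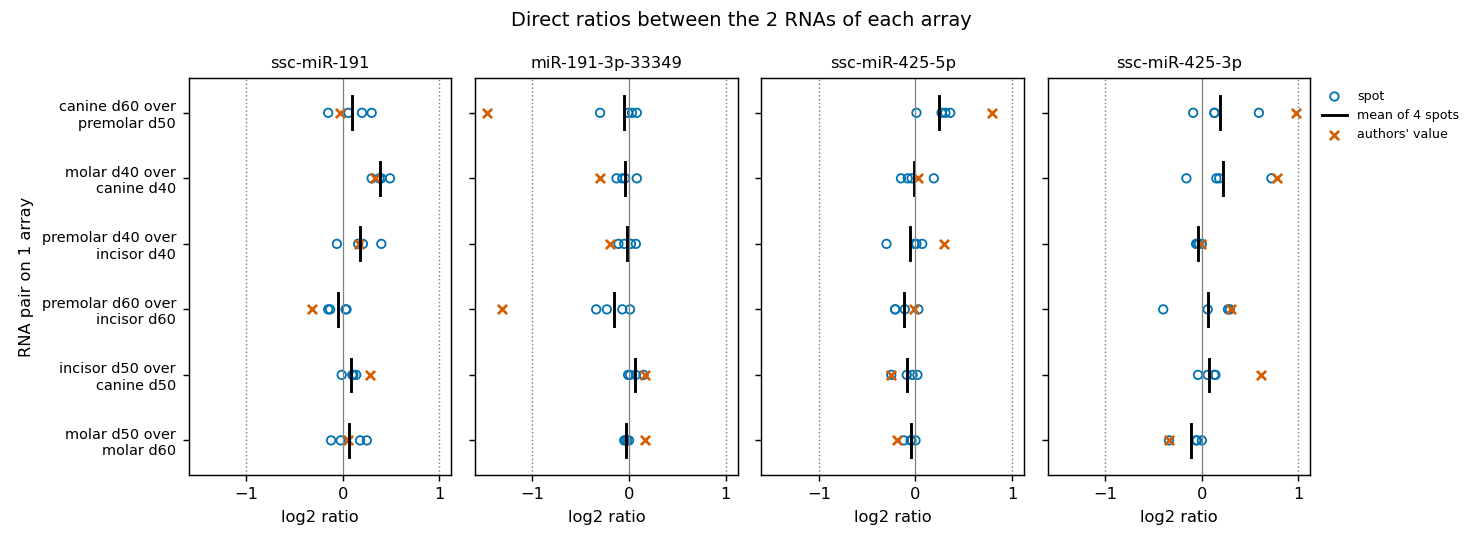
Log2 ratio of the first-named to the second RNA on each of 6 arrays for the 4 probes, with a circle for each spot, a bar for the mean of 4 spots and a cross for the authors' deposited value; dotted lines mark 2-fold. All circles lie inside the dotted lines, and the 4 circles of ssc-miR-191 for the day-40 molar over canine lie between 0.30 and 0.49.

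The levels of miR-191 and miR-425-5p went together over the 12 RNAs, with a Pearson r of 0.81. Without the later molar array r was 0.91 over 10 RNAs. The points share arrays and the step after day 40 on which the pair was chosen, so r is a description only. Among 175 other mature pig probes ranked by likeness to miR-191, miR-425-5p stood at rank 20. The 5p and 3p strands of a hairpin went together less closely: r was 0.38 for miR-191 and miR-191-3p, and -0.03 for miR-425-5p and miR-425-3p, with the 3p strands at or near background.

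For comparison, 7 of 12 listed pairs of miRNAs that come from one transcript had both probes measured. Their r ran from -0.25 for miR-221 and miR-222 to 0.96 for miR-23a and miR-27a, with a median of 0.73, and 4 of the 7 lay below the value of miR-191 and miR-425-5p. Since miR-191 and miR-425-5p were chosen for a step that both show, nothing is read from that count. Without the later molar array, miR-23a and miR-27a gave 0.64, and miR-181a and miR-181b went from 0.54 to 0.95. The r of such a pair therefore moved with that array, in both directions.

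Of 173 mature pig probes outside the pair, the 5 most like miR-191 were miR-30c (r = 0.95), miR-99b (0.94), miR-342 (0.94), miR-125a (0.93) and miR-92a (0.92), over 12 RNAs. Without the later molar array these r were 0.90, 0.90, 0.87, 0.84 and 0.82 over 10 RNAs. Their later levels exceeded day 40 by 0.66 to 0.95 on the log2 scale, and all but miR-92a had every day-40 RNA below every later one. The 5 most like miR-425-5p were miR-181b (r = 0.81), miR-30d (0.74), miR-99b (0.73), miR-24 (0.72) and miR-342 (0.72). miR-99b and miR-342 were on both lists.

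Marker miRNAs of the cell types a germ could hold were set beside the step, with no test by day. The summed linear level of 18 mesenchymal probes was 20439 to 25773 at day 40, 37796 to 45407 at day 50 and 27661 to 40585 at day 60. All day-40 sums lay below all later ones, but 0 of the 18 probes had every day-40 RNA below every later RNA. A linear sum is weighted towards the brightest probes. Of the 18 probes 14 were higher later, against 348 of all 656 tested probes, while PN-140-3p-18 differed by -1.16 and miR-214-5p-15474 by -0.83. The mesenchymal sum had an r of 0.80 with miR-191 over the 12 RNAs. The epithelial sum, over 17 probes, was 13653 to 15421 at day 40, 11893 to 26424 at day 50 and 16913 to 22370 at day 60. Of its 17 probes 15 were higher later, while PN-200a-3p-145 differed by -1.17 and PN-141-3p-21462 by -0.75. For 2 of the 17 every day-40 RNA lay below every later one. The r of the epithelial sum with miR-191 was 0.17. Sums for skeletal muscle, blood cells, endothelium and neural tissue overlapped between day 40 and the later days, and the neural sum had an r of 0.77 with miR-191. Of the 8 neural probes only ssc-miR-128 was detected in all RNAs. Its later levels exceeded day 40 by 0.72, while the other neural probes differed by -0.18 to 0.14. The muscle sum ran from 731 to 5249 over the day-40 germs, with an r of -0.11. The part of any cell type in the levels of miR-191 and miR-425-5p was not tested.

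**Figure D5:**
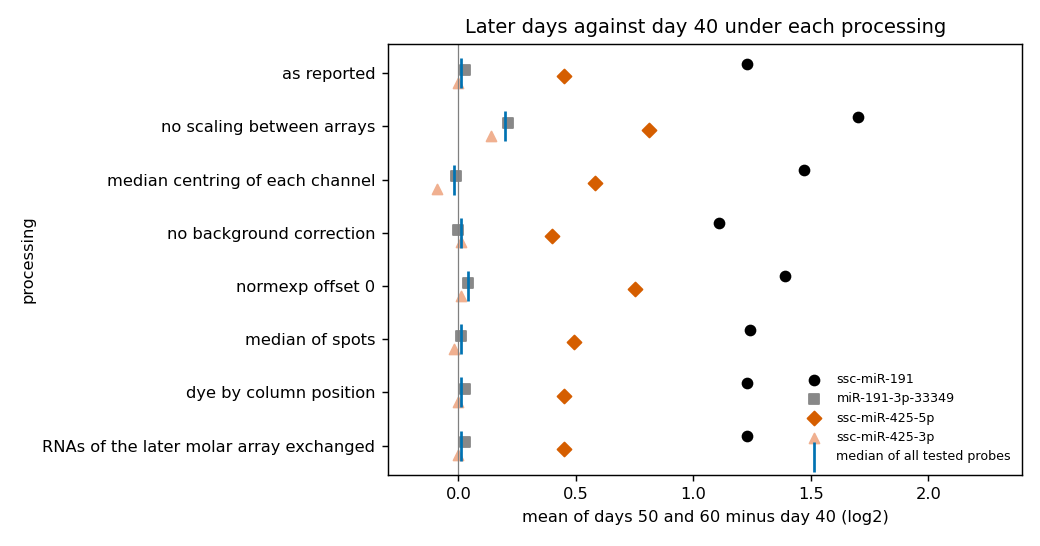
Mean of days 50 and 60 minus day 40 on the log2 scale for the 4 probes under each of 8 ways of processing, with a vertical tick for the median of all tested probes. ssc-miR-191 lies between 1.11 and 1.70 and ssc-miR-425-5p between 0.40 and 0.81, above the tick throughout, while the 3p probes lie near it.

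Under the 8 ways of processing, the mean step of both major strands stayed above 0, as the plot of processing shows. Median centring of each channel, in place of loess and scaling between arrays, ended the separation of days for both: the day-40 molar then read 9.06 for miR-191 and 6.99 for miR-425-5p, and the share of all tested probes that separated the days was 0.305%. The separation held in the other 12 of 13 settings tried, where the share of all tested probes was 2.13% to 10.2%. These settings included leaving out each array in turn and exchanging the later molars, which can hardly end a separation already present. The probes were also chosen for this step, so nothing is read from the count of settings. With no scaling between arrays the separation held only narrowly. The highest day-40 and lowest later levels were then 8.66 and 8.69 for miR-191, and 6.92 and 7.01 for miR-425-5p.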

How the data were processed

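The members and lists were chosen with earlier results of these data known. The deposited files hold linear spot intensity in 2 density columns per array, per the file headers, with no background removed; commas in the numbers were removed. The authors also deposited log2 values of their own processing, 1 for every probe of an array, used as an alternative only. Small RNAs were tailed and tagged for Cy3 or Cy5, per the labels' protocols and the dye of an RNA was taken from the labels. The sources used here name neither the scanner nor the steps behind the log2 values. Set against log2 ratios computed from the spots, the authors' values ran as first-named over second RNA (r = 0.86 to 0.96 over probes detected in both). One array title gives another day for its incisor than the other labels, and day 50 was used.

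Of 3968 spots per array 716 are blank. A loess surface through the blank spots (span 0.3) was corrected with normexp at offset 50, followed by loess within arrays, Aquantile between arrays and the mean log2 of 4 spots. Tests were made in limma 3.58.1 with statmod 1.5.0 and R 4.3.3, with Benjamini-Hochberg adjustment over 656 probes, two-sided, threshold 0.05; 5 residual degrees of freedom remained (prior 1.26). The fit was tested on simulated data. The number of arrays limits the precision. All member probes are named, with the 5 mature pig probes most correlated with each of miR-191 and miR-425-5p, and pairs from one transcript. Alternatives changed background, normalisation, spot summary, dye, block, filter, RNAs and arrays.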

Additional observations from a re-analysis of the deposited data

Results flagged for a closer look

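At day 60 the miR-191 level of the molar, 10.22, stood apart from the other 3 tooth types of that day, which lay between 9.25 and 9.40. Its gap to the nearest was 0.84 of the whole range, above Dixon's 95% critical value for 4 samples. At day 50 the molar's gap was 0.81 of the range, below that value. Of 12 sets of 4 RNAs examined, 3 days for each of 4 probes, 1 was singled out, and chance singles out about 5% of such sets. Both later molars share an array, and the part of that array in the level was not tested.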

How the results depend on the processing

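The step of miR-191 after day 40 was 1.70 with no scaling between arrays, where the median of all tested probes moved to 0.20. That of miR-425-5p was 0.81 with no scaling, 0.58 with median centring and 0.75 with a normexp offset of 0. Leaving out each RNA or array in turn gave 0.94 to 1.36 for miR-191 and 0.38 to 0.50 for miR-425-5p. It gave 0 to 1 of the 4 probes called in the F test over tooth types and 0 to 3 calls over the pairs of tooth types, the calls appearing without the day-40 molar or its array. Over 29 alternatives the adjusted p of the F test in limma ran from 0.0264 to 0.682 for miR-191, and from 0.173 to 0.815 for miR-425-5p, while the correlation within arrays ran from -0.31 to 0.97. The number of direct ratios past the size rule was 1 with median centring (miR-191, day-40 molar over canine, 1.33) and 1 in the authors' deposited values (miR-191-3p, -1.47; its -1.32 for the day-60 premolar over incisor was not counted, the probe being detected in neither RNA). The cause was not tested. No dye call appeared in the 28 alternatives run for it. Detection limits both 3p strands.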
